A study of Rattus norvegicus with 196 samples.

Results

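The lateral hypothalamus (LH) was compared between rats given fluoxetine (FT) and control rats (Sham). Its samples are those whose labels give LH as the brain region, which makes 8 of the 196 RNA-seq samples of the series, 4 FT and 4 Sham. Both groups were male Long-Evans rats. The labels give an age of 2 months, which by the methods was the age when the groups were formed, before treatment. FT rats received fluoxetine in their drinking water for 6 weeks, at a daily dose of 18 mg/kg, and Sham rats received water alone. Each sample is a pool of tissue punches from 10 animals, so that individual animals cannot be separated. Replicates carry the numbers 1, 3, 4 and 5 in both groups. According to the methods, samples with the same replicate number were handled in parallel, and an FT sample with its Sham sample of that number is called a pair here. The label of the Sham sample of replicate 1 notes that its raw read files were corrupted, and the counts deposited for it were used.

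Fluoxetine blocks the transporter that takes serotonin back into the nerve terminal, and is one of the most used antidepressants. The LH is a hypothalamic area concerned with feeding, wakefulness and reward. Its best known neurons make the peptides orexin, encoded by Hcrt, or melanin-concentrating hormone, and lie among many glutamatergic and GABAergic neurons. The question of the comparison was which transcripts differ in abundance in the LH after weeks of treatment. In tissue punches, fewer cells of a type and less RNA per cell cannot be told apart.

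Reads were counted on 29188 transcripts. The Sham libraries of replicates 1, 3, 4 and 5 held 15426416, 7742263, 18468637 and 18057452 counted reads, and the FT libraries 14118423, 7770397, 12795434 and 13696963. Expression is given as CPM, the read count relative to the library size scaled with TMM. The libraries of replicate 3 stood apart from the others in both groups. Their 50 most abundant transcripts took 68.52% of the reads in Sham and 71.07% in FT, against 32.18% to 37.7% in the other 6 libraries. Their TMM factors were 0.49 in Sham and 0.41 in FT, against 1.15 to 1.54 in the other libraries. A low factor raises the CPM of every transcript of that library. Apoe, a lipid carrier made by astrocytes, had 16930 CPM in Sham and 23540 CPM in FT of replicate 3 and between 250.6 and 757.3 CPM elsewhere. The share of reads outside annotated features also differed by replicate number. It was 24.9% and 20.56% in Sham and FT of replicate 1 and 25.5% and 28.86% in replicate 3. In replicate 4 it was 39.24% and 48.11%, and in replicate 5 41.79% and 40.54%. The FT library of replicate 4 had reads on 23507 transcripts, against 15275 to 20801 in the other libraries. The part of these differences in the results below was not tested.

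The LH label was checked with Hcrt (ENSRNOT00000025547), which only orexin neurons of this area are known to express strongly. In Sham, Hcrt had 29.2, 583.5, 1.085 and 6.87 CPM in replicates 1, 3, 4 and 5, from 527, 2197, 26 and 190 reads. In FT it had 60.41, 356.2, 8.66 and 10.41 CPM. Thus the samples of replicates 4 and 5 held little Hcrt in both groups, and replicate 3 lay above all other samples in both. With the libraries of all 25 regions scaled together, as for every comparison of levels between regions here, the Sham median of Hcrt in LH, 19.47 CPM, was exceeded in VMH with 54.71 CPM and PAG with 34.85 CPM only, and the ranges of these regions overlapped. The gene for melanin-concentrating hormone has no identifier in the name table and was not analysed here.

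Peptides of other hypothalamic nuclei were also found in the punches. Oxt, the oxytocin gene of magnocellular neurons, had 11.08, 2208, 1.753 and 4.736 CPM in Sham and 6.398, 1488, 2.615 and 9.285 CPM in FT. Avp, the vasopressin gene, had 11.41, 776.3, 0.9184 and 1.591 CPM in Sham and 14.58, 1255, 4.824 and 13.42 CPM in FT. Both were thus abundant only in replicate 3 of the LH samples, in Sham as in FT. In Sham, the regions VMH and MPOA also reached 2292 and 2687 CPM of Oxt in 1 sample each. Cartpt, which encodes a peptide of several hypothalamic neuron types, had 444.9 and 400.6 CPM in Sham and FT of replicate 3 and 14.53 to 69.37 CPM in the other libraries.

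**Figure D1:**
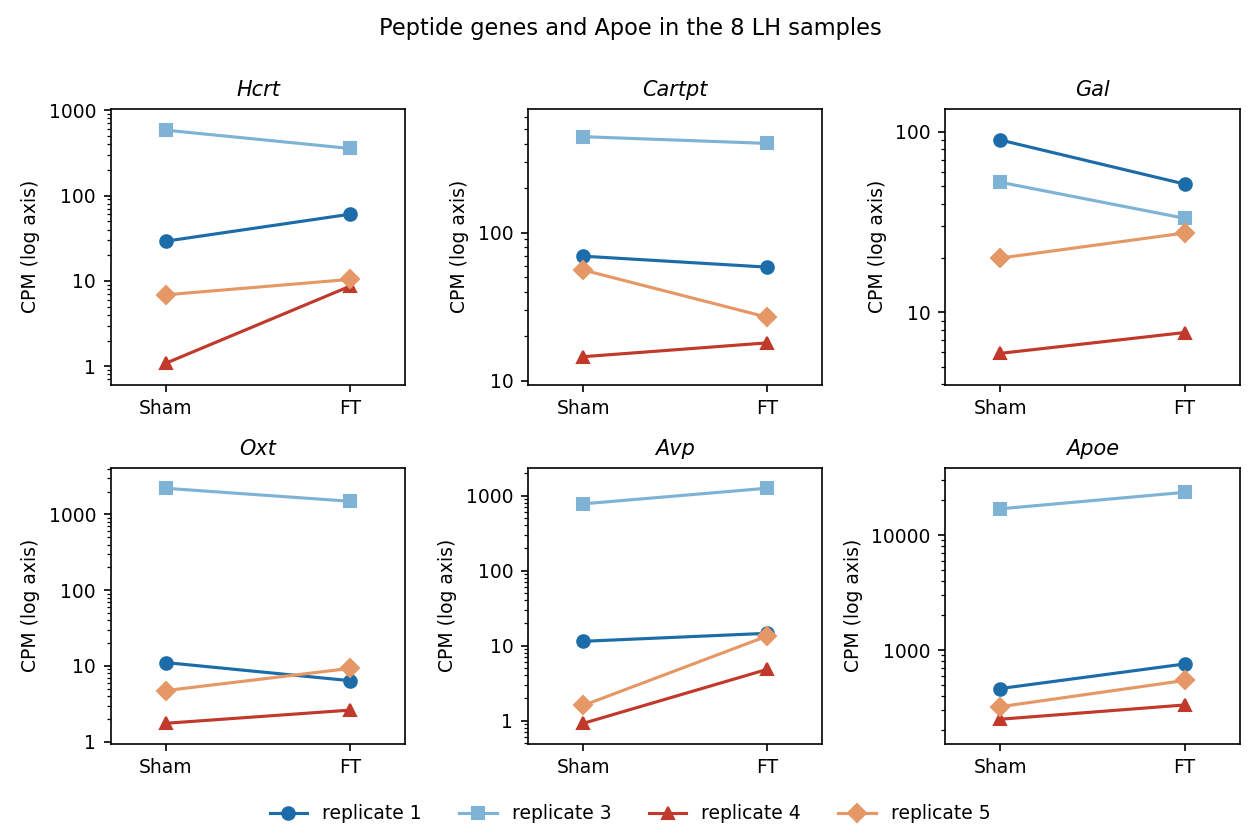
Expression of 5 peptide genes and Apoe in the 8 LH samples, in CPM on log axes, with a line joining the Sham and FT sample of each replicate number. For Hcrt, Oxt, Avp, Cartpt and Apoe the samples of replicate 3 lie far above the rest, in Sham as in FT.

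The differentially expressed genes (DEGs) of the LH were few, and the 8 named ones described here were rises of Adora2a, C1qtnf4, Dpm3 and Ppp1r1b and falls of Zfp483, Lonrf2, rnf141 and Synpr. With the replicate number as a block, edgeR's quasi-likelihood test called 13 of 13466 transcripts (0.0965%), 6 higher (0.0446%) and 7 lower (0.0520%) in FT. A call needed a log2FC of 0.32 or more in size and a p adjusted by Benjamini-Hochberg no larger than 0.1. All 13 had the same adjusted p of 0.0995, just inside the threshold, and 2338 transcripts had an unadjusted p under 0.05. DESeq2, the tool named in the study's methods, called 590 transcripts (2.35%), 338 higher (1.34%) and 252 lower (1.00%), and all 13 were among them. Without replicate 4, without replicate 5 or without the block, edgeR called 0 transcripts, and without replicate 1 or 3 it called 260 and 46. From replicates 4 and 5 alone it called 1861 and from replicates 1 and 3 alone 1120, in each case with these 8 DEGs among them, but these samples are those of the main test. Names exist for 1844 transcripts that the study itself called in at least 2 regions, so named genes are not a neutral sample. Of these, 1830 were tested and 9 (0.492%) were called.

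Adora2a (ENSRNOT00000001759) encodes an adenosine receptor best known from striatal neurons. It had 2.715, 3.187, 1.837 and 1.374 CPM in Sham replicates 1, 3, 4 and 5, and 8.797, 10.56, 5.289 and 4.186 CPM in FT. Every FT sample lay above every Sham sample. The log2FC was 1.63 (standard error 0.25), and the log2 ratio of FT to Sham lay between 1.31 and 1.58 in the 4 pairs. The reads behind it were few, 49, 12, 44 and 38 in Sham and 143, 34, 91 and 78 in FT. Groups did not overlap, with FT above Sham, for 150 of the 13466 transcripts (1.11%), and with FT below Sham for 154 (1.14%).

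Ppp1r1b (ENSRNOT00000037752) encodes DARPP-32, a phosphatase inhibitor regulated by dopamine and cAMP. Sham samples had 17.73, 22.58, 9.518 and 8.316 CPM and FT samples 50.01, 49.06, 17.38 and 16.1 CPM. FT exceeded Sham in each pair, but the groups overlapped because replicates 1 and 3 were higher than 4 and 5 in both. The log2FC was 1.11 (standard error 0.18). Both genes were highest in the accumbens among the Sham regions, with a median of 122.1 CPM for Adora2a and 389.3 CPM for Ppp1r1b in NaCcore, against 2.468 and 14.79 CPM in LH. A further 3 genes known from striatal neurons, of which Drd2 and Rasd2 were picked after values had been seen and Penk is in the LH peptide list, were called by neither tool. Drd2, the dopamine D2 receptor gene, had log2 ratios of 0.77, 0.50, -0.16 and -0.59 in replicates 1, 3, 4 and 5. The ratios of Rasd2, a striatal GTPase gene, were 0.57, 0.44, 0.63 and 0.00, and those of Penk, the enkephalin gene, 0.59, 0.46, 0.09 and -0.90. These 5 genes thus differed in their ratios, and the part of neighbouring tissue in the rise of Adora2a and Ppp1r1b was not tested.

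C1qtnf4 (ENSRNOT00000012110), which encodes a secreted protein with C1q and TNF related domains, had 2.77, 65.87, 1.002 and 3.652 CPM in Sham and 14.95, 118.6, 4.301 and 12.83 CPM in FT. The pair of replicate 3 was far above the others, and FT exceeded Sham in each pair, with a log2FC of 1.74 (standard error 0.26). Dpm3 (ENSRNOT00000045477), a subunit of the enzyme that makes the mannose donor for glycosylation, had 47.65, 22.84, 3.173 and 24.22 CPM in Sham and 102.5, 45.96, 17.15 and 109.6 CPM in FT. Its log2FC was 1.68 (standard error 0.26), and its log2 ratios of 2.264 and 2.155 in replicates 4 and 5 were larger than the 1.097 and 0.993 of replicates 1 and 3.

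Among genes that fell, Synpr (ENSRNOT00000011307) encodes synaptoporin, a membrane protein of synaptic vesicles. It had 38.51, 25.76, 54.98 and 31.6 CPM in Sham and 19.38, 14.28, 18.89 and 15.4 CPM in FT, without overlap, and a log2FC of -1.12 (standard error 0.18). Lonrf2 (ENSRNOT00000033964), a RING finger protein gene, had 28.42, 20.45, 55.1 and 32.43 CPM in Sham and 13.84, 11.18, 13.31 and 7.138 CPM in FT. These groups did not overlap either, and the log2FC was -1.58 (standard error 0.25).

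The RING finger gene rnf141 (ENSRNOT00000024561) had 6.926, 31.34, 28.6 and 28.64 CPM in Sham and 3.568, 12.42, 9.299 and 8.051 CPM in FT. Its Sham sample of replicate 1 lay below 3 of the FT samples, and within each pair FT was lower, with a log2FC of -1.46 (standard error 0.21). Zfp483 (ENSRNOT00000020207), a zinc finger gene, had 1.884, 8.233, 10.52 and 9.4 CPM in Sham and 0.5536, 1.863, 4.301 and 2.2 CPM in FT. FT was lower in each pair while the groups overlapped, and the log2FC was -1.77 (standard error 0.28). A further 4 DEGs have no name in the table used. One of them was higher in FT (log2FC 1.61) and 3 were lower, with log2FC of -1.84, -2.05 and -3.13, from at most 381 reads in a Sham library and 81 in an FT library.

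**Figure D2:**
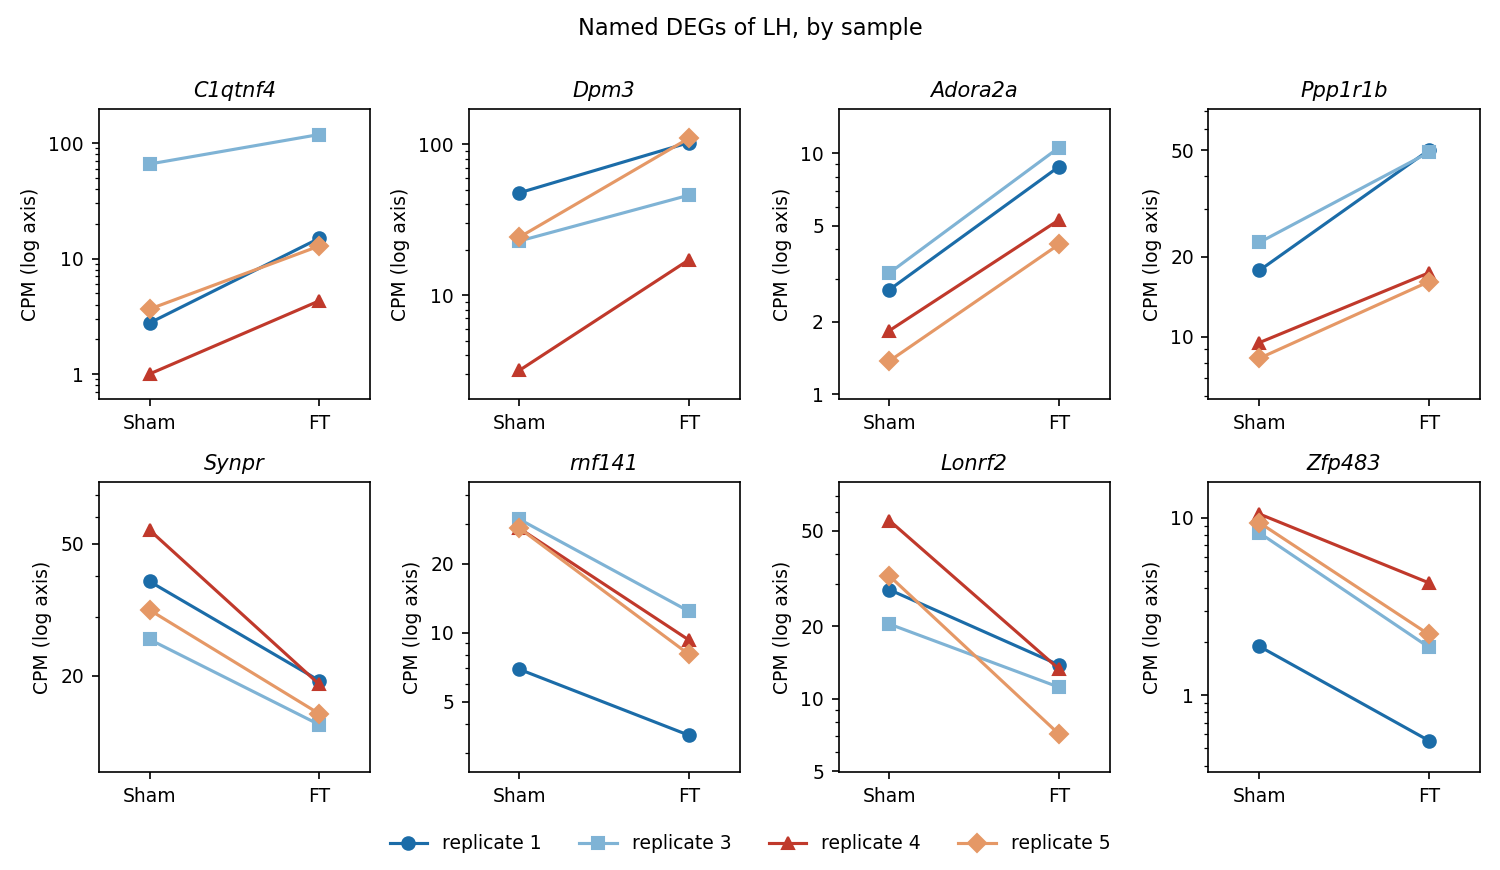
The 8 DEGs of the LH described here, in CPM on log axes, with a line joining the Sham and FT sample of each replicate number. All lines of the upper row (C1qtnf4, Dpm3, Adora2a and Ppp1r1b) rise, and all lines of the lower row (Synpr, rnf141, Lonrf2 and Zfp483) fall.

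Next to these stood named genes that did not pass the edgeR threshold but went the same way in the 4 pairs, as 13.3% of all transcripts did upwards and 12.3% downwards. Those with the smallest p above Sham were Ubxn1, Ppp1r14a, Ndufb2, Ccdc28b and 1810043H04Rik. Ubxn1, an adaptor of the ubiquitin-dependent ATPase p97, had a log2FC of 0.99 (edgeR adjusted p = 0.107). Ppp1r14a, an inhibitor of myosin phosphatase, had 1.60 and Ndufb2, a subunit of respiratory complex I, had 1.13. The values of Ccdc28b and 1810043H04Rik were 1.01 and 1.21.

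Those below Sham were Lrrtm4, Enpp5, Pkia, Pls1, Trove2 and Phlpp2. Lrrtm4, a postsynaptic adhesion protein of excitatory synapses, had 2.937, 0.7968, 21.04 and 15.22 CPM in Sham and 1.415, 0, 3.778 and 2.63 CPM in FT, with a log2FC of -2.14 (edgeR adjusted p = 0.107). The decrease was thus mainly carried by replicates 4 and 5, where the Sham level was highest. Pkia, an inhibitor of protein kinase A, had a log2FC of -1.40, and Phlpp2, a phosphatase of the kinase Akt, -1.74. Trove2, which encodes the RNA-binding protein Ro60, had -1.41, Enpp5 -1.26 and the actin-bundling gene Pls1 -1.17. DESeq2 called all 11 of these genes.

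Of 23 peptide and transmitter genes listed for the LH, 10 had a name and all 10 were tested. Their median log2FC was -0.05, beside 0.01 for all transcripts tested and 0.23 for named transcripts, with 5 above and 5 below 0 and none called by edgeR. Cck, the cholecystokinin gene, had 13.96, 117.7, 30.27 and 28.6 CPM in Sham and 24.3, 182.3, 135.1 and 206.7 CPM in FT. FT was above Sham in each pair, by log2 ratios of 0.78, 0.63, 2.14 and 2.83, and the log2FC was 1.62 (standard error 0.35, edgeR adjusted p = 0.121). Vip, encoding vasoactive intestinal peptide, had 17.4, 9.562, 16.45 and 9.69 CPM in Sham and 29.34, 14.59, 27.84 and 28.45 CPM in FT. The log2FC was 0.94 (standard error 0.21, edgeR adjusted p = 0.121), and DESeq2 called both Cck and Vip.

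Hcrt itself had a log2FC of 0.84 with a standard error of 0.45 (edgeR adjusted p = 0.363), and its log2 ratios of 1.04, -0.71, 2.53 and 0.57 differed in sign. Without the block its log2FC was -0.51. Gad2, an enzyme of GABA synthesis, had a log2FC of -0.56 and was below Sham in each pair. Slc17a6, the vesicular glutamate transporter of hypothalamic neurons, had -0.19. The peptide genes Sst, Cartpt, Gal and Penk had 0.32, -0.29, -0.16 and 0.06, each with pairs of both signs.

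The largest negative log2FC of a named gene described here was that of Slc6a3 (ENSRNOT00000040291), the dopamine transporter of dopaminergic neurons. It had 8, 11, 251 and 136 reads in Sham replicates 1, 3, 4 and 5 and 0, 6, 10 and 5 reads in FT, or 0.4433, 2.922, 10.48 and 4.917 CPM and 0, 1.863, 0.5812 and 0.2684 CPM. The high values were those of Sham replicates 4 and 5. The log2FC of -3.41 (standard error 0.63) did not pass with edgeR (adjusted p = 0.117), and DESeq2 called it (adjusted p = 0.000561). Th, the enzyme of dopamine synthesis, had log2 ratios of 0.20, 0.27, -1.63 and -0.86 in replicates 1, 3, 4 and 5 and a log2FC of -0.55. In Sham, Slc6a3 had a median of 63.76 CPM in VTA and 20.43 CPM in Arc, 2 sites of dopamine neurons, and 3.951 CPM in LH. The part of dopaminergic tissue in the punches in this difference was not tested.

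Of the peptides of neighbouring nuclei, Oxt had a log2FC of -0.00 with a standard error of 0.45, and Avp had 1.49 (standard error 0.41, edgeR adjusted p = 0.151). Avp was above Sham in each pair, with log2 ratios of 0.34, 0.69, 1.91 and 2.74, but from 22 and 44 reads in Sham replicates 4 and 5. Npvf, which encodes RFamide peptides of the dorsomedial hypothalamus, had 160, 15, 16 and 8 reads in Sham and 11, 0, 13 and 4 in FT. Its difference thus came from replicates 1 and 3. Ttr, transthyretin, the most abundant secreted product of the choroid plexus, had 80.67, 132.8, 36.4 and 8.316 CPM in Sham and 32.11, 95.02, 4.65 and 5.743 CPM in FT. Its log2FC was -1.29 (edgeR adjusted p = 0.151) and DESeq2 called it, whereas the 11 ependymal and choroid plexus markers tested had a median of -0.05 and only Ttr had an unadjusted p under 0.05.

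Named mitochondrial genes encoded in the nucleus lay above Sham as a group, although edgeR called none. Names exist only for transcripts that the study called in more than 1 region, LH among the regions it tested. The lists thus hold transcripts already chosen for a response. Of the 1830 named transcripts tested, 1129 had a positive log2FC, with a median of 0.23. Of 36 genes of the respiratory chain and ATP synthase, 33 had a positive log2FC, with a median of 0.59, and 22 had an unadjusted p under 0.05 with FT above Sham and 1 with FT below. Among all transcripts tested these shares were 9.19% and 8.17%, and among named transcripts 30.4% and 17.2%. DESeq2 called 12 of the 36 higher and 0 lower, where it called 13.3% of the named transcripts higher and 8.47% lower, the shares against which the DESeq2 counts of the other lists are read. The median log2 ratio of the group was 0.12, 0.39, 0.60 and 1.07 in replicates 1, 3, 4 and 5. Ndufb2 had 54.52, 761.7, 28.01 and 51.77 CPM in Sham and 154, 1173, 63.18 and 121.6 CPM in FT. Cox6a1, a subunit of cytochrome c oxidase and the member with the highest mean CPM, had a log2FC of 0.49. Uqcrc2, a core subunit of complex III, had a log2FC of -0.59 and was below Sham in each pair.

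Genes of the mitochondrial ribosome and of protein import gave 34 of 35 positive values and a median of 0.52. In this list 17 had an unadjusted p under 0.05, all with FT above Sham, and DESeq2 called 10 higher. Mrps34, of the small mitochondrial subunit, had a log2FC of 0.88 and the import channel gene Timm17a, with the highest mean CPM, 0.38. The log2 ratios of Timm17a were -0.20, -0.02, 0.41 and 1.32 in the 4 pairs, and without replicate 5 its log2FC was 0.06417. Mrpl2 was the one member below 0, at -0.14. Of the 8 genes encoded in the mitochondrial genome itself, 6 had a negative log2FC, the median was -0.24 and DESeq2 called 1 lower. MT-ND4L had -0.58, MT-CO3 -0.25 and MT-ATP8 0.23, with MT-ATP8 below Sham in replicates 1 and 3 and above in 4 and 5. Cytosolic ribosomal protein genes were mixed, with 15 of 27 above 0, a median of 0.12 and 4 called higher by DESeq2 (14.8%). Their pair medians were 0.33, 0.45, -0.38 and -0.14 in replicates 1, 3, 4 and 5. FAU, whose product is processed to a ribosomal protein of the small subunit, had 0.79, Rpl41 -0.12 and RPL39 -0.92.

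Neuronal membrane genes lay mostly below Sham. Among 17 neurotransmitter receptor genes tested, 12 had a negative log2FC and the median was -0.53. One, Adora2a, was called by edgeR, and DESeq2 called 3 higher and 5 lower, where it called 244 (13.3%) of the 1830 named transcripts higher and 155 (8.47%) lower. Of all named transcripts tested, 701 were below 0. Gabrb2, a subunit of the GABA-A receptor, had 4.155, 11.95, 17.41 and 11.61 CPM in Sham and 2.768, 5.9, 6.8 and 5.904 CPM in FT and a log2FC of -0.997 (edgeR adjusted p = 0.121). The metabotropic glutamate receptor gene Grm3 had -0.37. Both were below Sham in the 4 pairs.

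For potassium, sodium and calcium channels, 15 of 21 values were negative, with a median of -0.33, and DESeq2 called 2 higher (9.52%) and 4 lower (19%). The sodium channel subunit gene Scn2b had -1.06, and Cacnb4, a calcium channel subunit, had -0.56. Genes of the synaptic vesicle and release machinery had a median of -0.20, with 17 of 28 below 0. Their pair medians were 0.36, 0.05, -0.48 and -0.72 in replicates 1, 3, 4 and 5. Synpr was the only one called by edgeR, and DESeq2 called 3 higher (10.7%) and 4 lower (14.3%), Synpr among the latter. Syp, the member with the highest mean CPM, had 0.32, and Vamp8, a SNARE of endosomal fusion and one of those DESeq2 called, 0.72.

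**Figure D3:**
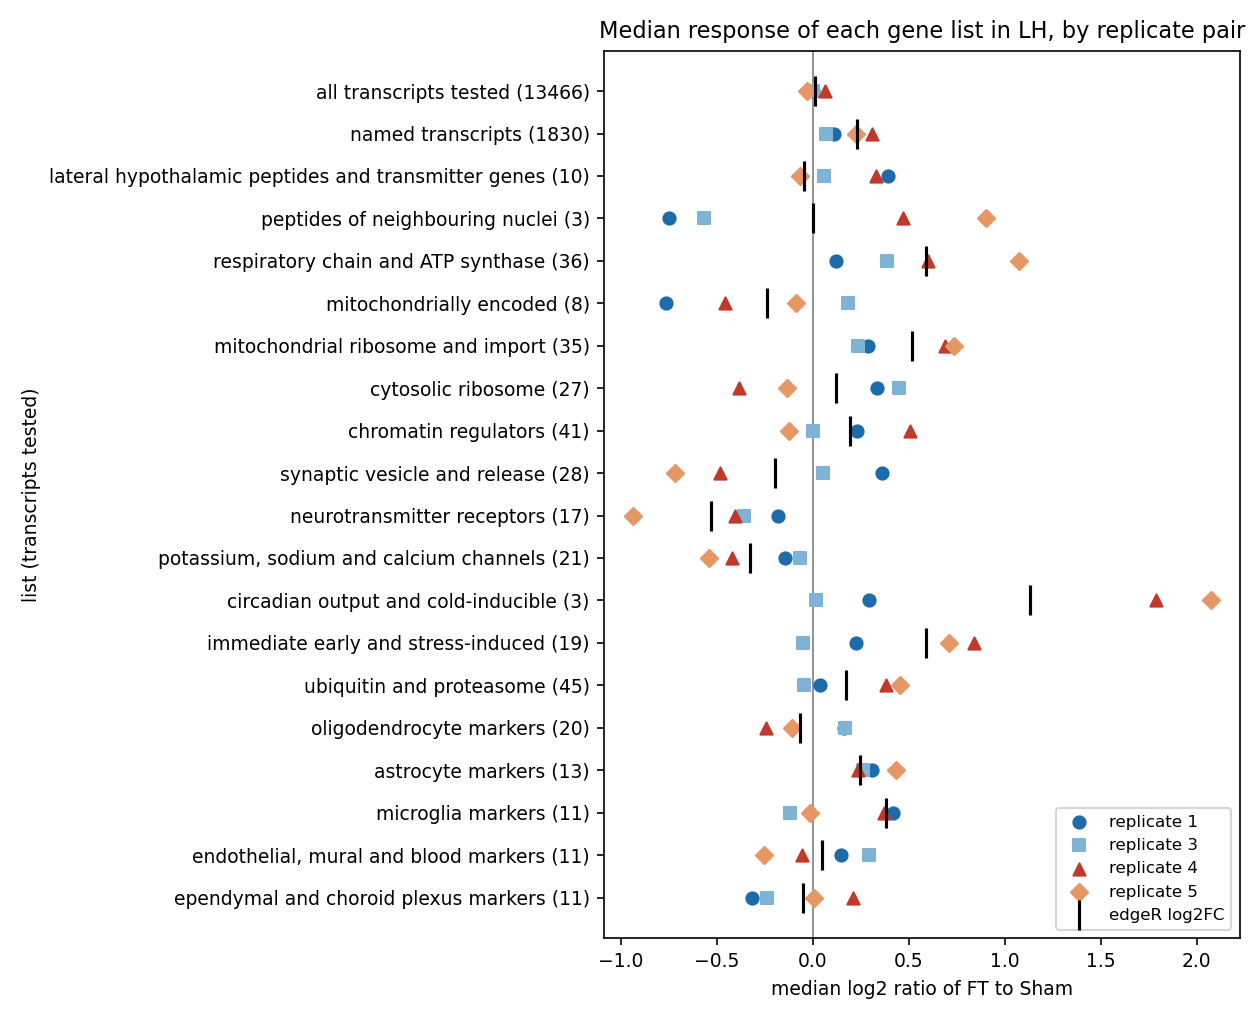
Median log2 ratio of FT to Sham for each gene list in each replicate pair (coloured symbols) and median edgeR log2FC (black bars), with the number of transcripts tested in brackets. The nuclear mitochondrial lists lie above 0 in each pair, receptors and channels lie below 0 in each pair, and the synaptic and cytosolic ribosome lists change sign between replicates 1 and 3 and replicates 4 and 5.

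Oligodendrocyte markers were mixed. Of 20 tested, 9 had a positive log2FC and the median was -0.07. edgeR called 1 of them higher, which is not described here, and DESeq2 called 5 higher (25%) and 0 lower. Among those called by DESeq2, Sox10, Gjb1, Gsn and Pllp, taken from the list after values had been seen, were above Sham in each pair. Sox10, the transcription factor of the lineage, had 46.1, 61.35, 32.56 and 43.13 CPM in Sham and 71.6, 92.23, 71.37 and 81.74 CPM in FT, without overlap, and a log2FC of 0.82 (edgeR adjusted p = 0.121). The connexin gene Gjb1 had 0.87, Gsn, which encodes the actin-severing gelsolin, 0.79 and Pllp, a myelin membrane protein gene, 0.61. In contrast, Apod, the marker with the highest mean CPM, had -0.23 and Omg, a myelin glycoprotein gene, -0.40. The summed level of the 20 markers was 4946, 4539, 6765 and 4604 CPM in Sham and 5267, 5452, 4505 and 4140 CPM in FT. The sum with Apod was thus higher in FT in replicates 1 and 3 and lower in replicates 4 and 5. Without Apod, the other 19 markers summed to 2913, 2452, 3743 and 2731 CPM in Sham and 3053, 2764, 2921 and 2800 CPM in FT, lower in FT in replicate 4 only.

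Of the astrocyte, microglial and vascular markers, none was called by edgeR. DESeq2 called 4 of the 13 astrocyte markers higher (30.8%) and 2 lower (15.4%), 2 of the 11 microglial markers higher (18.2%) and 1 of the 11 vascular and blood markers higher (9.09%). The shares of named transcripts were 13.3% and 8.47%, and with so few markers 1 call moves a share by several percent. Slc7a10, Apoe, Slc6a11, C1qa and Higd1b were among these. Astrocyte markers had a median of 0.24 with 8 of 13 above 0, and they differed in direction. Slc7a10, a transporter for serine, had 0.67 and Apoe 0.59, while Slc6a11, a GABA transporter, had -1.51. Slc6a11 had 21.83, 48.6, 22.83 and 24.12 CPM in Sham and 12.3, 42.23, 5.696 and 2.63 CPM in FT, so that its lowest values were those of FT replicates 4 and 5. The 11 microglial markers had a median of 0.38, with C1qa, a complement gene, at 0.66 and Mpeg1 at -1.11. The 11 endothelial, mural and blood markers had a median of 0.05, with the pericyte gene Higd1b at 1.003, Calcrl at -1.35 and the haemoglobin gene Hbb at 0.06. Riiad1, an ependymal marker, had 0.35.

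Stress-related and circadian genes had their larger ratios in replicates 4 and 5. Of 19 immediate early and stress-induced genes, 16 were above 0 with a median of 0.59, and pair medians of 0.22, -0.05, 0.84 and 0.71. DESeq2 called 4 of them higher (21.1%), and edgeR none. DEPP, a target of FOXO factors, had 1.68 and Arrdc3 -1.37, and Bnip3, with the highest mean CPM, had -0.01. The clock output gene Dbp had 68.81, 36.39, 53.39 and 49.53 CPM in Sham and 63.05, 58.07, 185.2 and 210.1 CPM in FT. Cirbp, a cold-inducible RNA-binding protein gene, had 138.4, 111.8, 78.57 and 95.38 CPM in Sham and 218.6, 111.5, 336.1 and 926.4 CPM in FT. Their log2FC were 1.13 and 1.51, neither called by edgeR and that of Dbp called by DESeq2, and both came mainly from replicates 4 and 5.

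Chromatin regulators had a median of 0.19 with 26 of 41 above 0, and pair medians of 0.23, 0.00, 0.51 and -0.12. DESeq2 called 4 higher (9.76%), fewer than the 13.3% of named transcripts, and the median was below their 0.23. Trim28, a corepressor that recruits histone methyltransferases, had 74.47, 53.92, 71.34 and 69.71 CPM in Sham and 93.38, 94.4, 171.2 and 166.7 CPM in FT. The groups did not overlap, and the log2FC was 0.92 (standard error 0.20, edgeR adjusted p = 0.121). The remodelling ATPase gene Smarca5 had 0.87 and the deacetylase gene Hdac8 -0.69. The log2 ratios of Smarca5 were -0.27, -0.001589, 1.319 and 2.445 in replicates 1, 3, 4 and 5. With 1 pair left out, its log2FC lay between 0.3503 and 1.257. Ubiquitin and proteasome genes had a median of 0.17 with 29 of 45 above 0, and DESeq2 called 6 higher (13.3%) and 3 lower (6.67%), near the 13.3% and 8.47% of named transcripts. Their median lay below the 0.23 of named transcripts. Among them, the F-box genes Fbxo2 and Fbxl17 had 0.78 and -1.11, and the ubiquitin gene UBB 0.36.

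Otub1, a deubiquitinase, had 992.1, 351.9, 227.6 and 344.6 CPM in Sham and 1134, 366.7, 616.6 and 974.1 CPM in FT. Its log2 ratios were 0.19, 0.06, 1.436 and 1.498 in replicates 1, 3, 4 and 5, with a log2FC of 0.80 (edgeR adjusted p = 0.211). Mat2a, which makes the methyl donor S-adenosylmethionine, had 12.47, 62.15, 86.71 and 64.94 CPM in Sham and 8.797, 37.57, 10.17 and 5.743 CPM in FT. Here too the difference was larger in replicates 4 and 5, and the log2FC was -1.98 (edgeR adjusted p = 0.135). Napb, of the vesicle fusion machinery, and Cds2, of phospholipid synthesis, had -1.41 and -1.61. DESeq2 called all 4 genes and Trim28. Across the 13466 transcripts, which are not independent replicates, the log2 ratios had an r of 0.51 between replicates 4 and 5, 0.29 between 1 and 3, and 0.09 to 0.18 between the others.

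**Figure D4:**
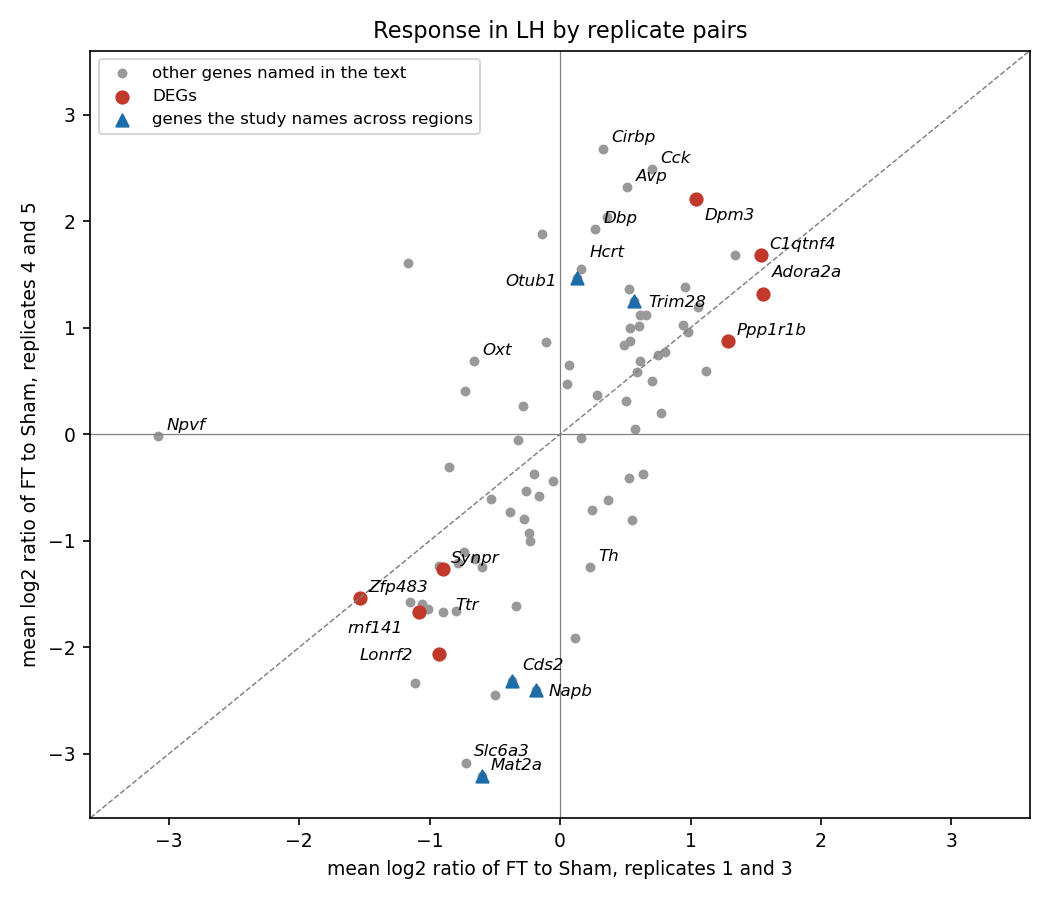
Mean log2 ratio of FT to Sham in replicates 1 and 3 (x axis) against that in replicates 4 and 5 (y axis) for the genes named in the text, with the line of equal ratios dashed. The 8 DEGs described (red) have the same sign on both axes, with Dpm3 and Lonrf2 farther from 0 on the y axis, and Otub1, Mat2a, Napb and Cds2 lie much farther from 0 on the y axis than on the x axis.

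The LH response was compared with that of VMH, the adjoining hypothalamic region, and with the region labelled PVN, each with 4 pairs. In the PVN samples, Oxt and Avp had Sham medians of 0.2606 and 0.2193 CPM and Ttr 10490 CPM, so the markers of a hypothalamic paraventricular nucleus were near 0 there. The list of regions given with the study names PVN as the paraventricular nucleus of the thalamus. edgeR's test of the interaction of region and treatment called 0 of 14436 transcripts (0.00%) between LH and VMH and 0 of 14739 (0.00%) between LH and PVN. An unadjusted p under 0.05 was found for 175 and 282 transcripts. DESeq2 called 2 of 25530 (0.00783%) and 0. No gene can thus be called particular to LH by this edgeR test.

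The numbers of animals and regions in the methods imply that samples of one replicate number come from the same animals in every region, which that test ignores. A fit in which the FT response could differ by replicate number, shared by both regions, was added after the data had been seen. It left few residual degrees of freedom. edgeR then called 1 transcript between LH and VMH (0.00693%), Slc6a3, and 5 between LH and PVN (0.0339%), with Ttr and Oxt the ones described here. DESeq2 called 22 (0.0862%) and 23 (0.0900%). Between LH and VMH, the LH minus VMH difference in log2FC was -5.74 for Slc6a3 (standard error 0.69, edgeR adjusted p = 0.0505), -1.25 for Gal (standard error 0.24, edgeR adjusted p = 0.405), -1.48 for Th (standard error 0.33, edgeR adjusted p = 0.454) and -1.68 for Ttr (standard error 0.33, edgeR adjusted p = 0.405). DESeq2 called these 4 genes and Lonrf2. Between LH and PVN the difference was -2.31 for Ttr (standard error 0.29, edgeR adjusted p = 0.0253). For Oxt it was -3.34 (standard error 0.41, edgeR adjusted p = 0.0257), but the PVN samples of replicates 4 and 5 held at most 1 read of Oxt.

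In the test with independent pairs, Slc6a3 was the one named transcript of the 2 called by DESeq2. It was below Sham in each LH pair and above Sham in each VMH pair, with 1, 2, 6 and 7 reads in Sham and 2, 16, 29 and 20 in FT of VMH. The LH minus VMH difference in log2FC was -5.42 with edgeR (standard error 0.88, adjusted p = 0.679) and -5.47 with DESeq2 (standard error 1.01, adjusted p = 0.00155). The other, a transcript without a name, had a difference of -1.49 (standard error 0.31, adjusted p = 0.0271 with DESeq2).

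Within VMH and within PVN, edgeR called 0 of 13358 transcripts (0.00%) and 0 of 13881 (0.00%) for FT against Sham. DESeq2 called 550 of 22010 and 608 of 22133. The 8 DEGs described above had the same sign in VMH and in PVN as in LH, but no value there was an edgeR call. Adora2a had a log2FC of 0.25 (standard error 0.37) in VMH and 0.39 (standard error 0.45) in PVN, against 1.63 in LH, a difference of 1.35 (standard error 0.40) from VMH with an edgeR adjusted p of 0.999. Synpr had -1.26 in VMH and -1.44 in PVN against -1.12 in LH. Lonrf2 had -0.54 and -1.08 against -1.58. Gal, Th and Ttr gave negative values in LH and positive ones in both other regions, but several of these signs were uncertain. In LH, Gal and Th had pairs of both signs. Ttr had 0.30 (standard error 0.50) in VMH and Th 0.34 (standard error 0.73) in PVN, each with pairs of both signs. Gal and Ttr also had pairs of both signs in PVN. Gal had 1.08 (standard error 0.22) in VMH, with FT above Sham in each pair, against -0.16 in LH, a difference of -1.26 (standard error 0.34, edgeR adjusted p = 0.999). Hcrt had 1.53 (standard error 0.27) in VMH and was above Sham in each pair there. The edgeR adjusted p for FT against Sham in VMH was 0.291 for both Gal and Hcrt.

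**Figure D5:**
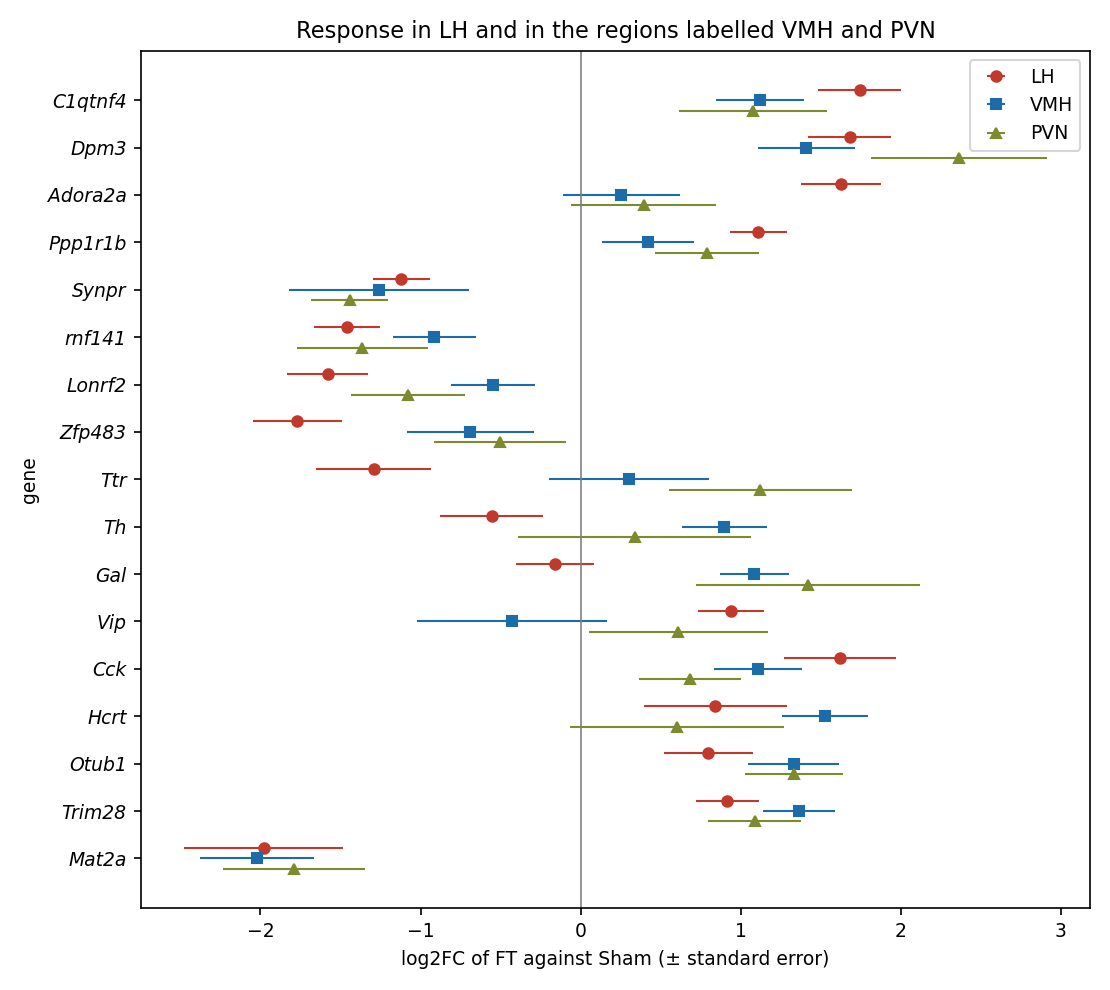
The log2FC of FT against Sham with its standard error from separate edgeR fits of LH (red), VMH (blue) and PVN (green) for 8 DEGs and 9 further genes. All 8 DEGs share their sign in the 3 regions, whereas the values of Ttr, Th and Gal are below 0 only in LH. For these genes, the error bars of Gal in LH, Ttr in VMH and Th in PVN cross 0.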

How the data were processed

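The authors deposited raw counts of reads per Ensembl transcript for each sample, with no normalization. Per the labels and methods, 76 bp paired-end reads were aligned to rn5 with STAR and counted with HTSeq, whose versions and strand setting are not given in the sources used here. The labels give polyA RNA, while the kit named is for stranded total RNA. The last 5 lines of each file, which hold unassigned reads, were dropped. Overlapping and near-identical transcripts share reads that such counting can split or discard.

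The LH samples were fitted with edgeR 4.0.16 in R 4.3.3 (TMM, filterByExpr set to min.count 10 and min.total.count 15, replicate number as block, quasi-likelihood test). FT and Sham samples of the same number deviated together from their group means (r = 0.69, 0.85, 0.75 and 0.41 for replicates 1, 3, 4 and 5), in addition to the parallel processing stated in the methods. Standard errors were obtained as the size of the log2FC over the root of the F statistic. Pair ratios used log2 of CPM plus 0.5. DESeq2 1.42.0 with the same block, other filters, scalings and subsets of replicates were alternatives. Interactions with VMH and PVN were fitted jointly, every pair of either region being its own block. A fit added after seeing the data let the FT response differ by replicate number, because the methods imply that regions share animals. The code was tested on simulated data. Labels do not say whether pools of different numbers share animals' litters or batches, and p-values measure the spread between these pools. Counting error limits transcripts with few reads.

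Gene names came from a supplementary table of the study. The members, gene lists and tests were chosen with earlier results of these data known. Named genes were all named DEGs, the LH peptide list, and Otub1, Trim28, Mat2a, Napb and Cds2. To these came the 10 named genes on each side with the smallest p among those alike in the 4 pairs. Each other list gave the smallest p on each side and the gene with the highest mean CPM. Some genes that this rule picked are not reported here. Rasd2, Drd2, Slc6a3, Sox10, Gjb1, Gsn and Pllp were added after values were seen. Python 3.11.15 with pandas 2.3.3 and matplotlib 3.10.9 made the summaries and figures.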

Additional observations from a re-analysis of the deposited data

Results flagged for a closer look

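In groups of 4, a sample was singled out when its gap to the nearest other sample, as a share of the range of the group, exceeded the 95% critical value of Dixon's test. Chance gives about 1 in 20 for independent groups of normally distributed values. CPM of many genes from the same libraries need not meet this, so the count below cannot be set against that rate. This was found in 44 of 176 groups (83 genes and 5 library measures in FT and Sham), and replicate 3 was the sample concerned in all but 3 of them. Those 3 were Sham samples of replicate 1, with 6.926 CPM of rnf141 (next 28.6), 992.1 CPM of Otub1 (next 351.9) and 14.41 CPM of Higd1b (next 9.768). In replicate 3, the 50 most abundant transcripts took 71.07% of the reads in FT and 68.52% in Sham.

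Peptide genes of replicate 3 stood apart. Hcrt had 356.2 CPM in FT and 583.5 in Sham, Cartpt 400.6 and 444.9, Oxt 1488 and 2208, and Avp 1255 and 776.3. Cck was singled out at 117.7 CPM in Sham, and Vip, with the lowest value of the group, at 14.59 CPM in FT.

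Many further genes had high CPM in replicate 3, where the low TMM factors also raise the CPM. In FT and Sham, C1qtnf4 had 118.6 and 65.87 CPM, Ppp1r14a 348.1 and 205.3, Ndufb2 1173 and 761.7, and 1810043H04Rik 108.7 and 76.49. Cox6a1 had 3738 and 2310 CPM, FAU 113.3 and 65.34, RPL39 6.832 and 9.03, and Fbxo2 230.7 and 183.5. Apoe had 23540 and 16930 CPM, Hbb 1183 and 929.3, and Cds2 39.75 and 53.92. In FT alone, Mrps34 was singled out at 90.05 CPM, MT-ND4L at 2265, Napb at 18.94, Mat2a at 37.57 and Trove2, as the lowest value, at 3.105. In Sham alone, MT-ATP8 was singled out at 2354 CPM and Slc6a11 at 48.6.

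Slc6a3 was below Sham in every LH pair and above Sham in every VMH pair. The difference in log2FC, LH minus VMH, was -5.421 with an edgeR adjusted p of 0.679 and -5.468 with a DESeq2 adjusted p of 0.00155. An unnamed transcript had a difference of -1.487 with a DESeq2 adjusted p of 0.0271.

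With an FT response that could differ by replicate number in both regions, a fit chosen after seeing the data, the following differences in log2FC passed the test of the difference. Against VMH, Slc6a3 had -5.737 with edgeR (adjusted p = 0.0505) and -5.618 with DESeq2 (adjusted p = 1.812e-05). By DESeq2 alone, Lonrf2 had -1.069 (adjusted p = 0.0848), Th -1.508 (adjusted p = 0.0351), Gal -1.296 (adjusted p = 0.0143) and Ttr -1.698 (adjusted p = 0.00874). Against PVN, Ttr had -2.307 with edgeR (adjusted p = 0.0253) and -2.36 with DESeq2 (adjusted p = 2.824e-14), and Oxt had -3.338 with edgeR (adjusted p = 0.0257).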

How the results depend on the processing

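In LH, edgeR called 13 transcripts, all at an adjusted p of 0.0995 and close to the threshold of 0.1. DESeq2 called 590, edgeR with RLE size factors 34 and edgeR without the low-count filter 1062, and all 13 were called in each of these. The number was 0 with the stricter filter of 50 reads on average (smallest adjusted p = 0.135 with edgeR, 12 of the 13 tested), 0 at an adjusted p of 0.05 and 0 without the 50 most abundant transcripts (smallest adjusted p = 0.103 with edgeR). Without the replicate block, edgeR called 0 transcripts and 346 had an unadjusted p under 0.05, against 2338 with it. Leaving out 1 pair gave between 0 and 260 calls, with 0 without replicate 4 or 5. The 13 transcripts kept their sign with each pair left out, with RLE, with DESeq2 and without the block. Replicates 4 and 5 alone gave 1861 calls, with all 13 called. Replicates 1 and 3 alone gave 1120 calls, with 11 of the 13 tested and called. The causes were not tested. The median log2FC of all transcripts was 0.01 with edgeR and 0.14 with DESeq2, which tests more transcripts. For the interaction with VMH, DESeq2 called 2 transcripts. With an FT response that could differ by replicate number, added after seeing the data, edgeR called 1 transcript against VMH and 5 against PVN, and DESeq2 22 and 23. All other fits of both interactions, those without the replicate block included, called 0.

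Of 83 genes, 67 kept their sign with each pair left out, with RLE, with DESeq2, without the block and in each set of 2 pairs (82 genes fitted in replicates 1 and 3). With RLE size factors the log2FC of Oxt was 0.01042 (the median of its list of neighbouring peptides also 0.01042), and with DESeq2 0.01716. Without the replicate block, Hcrt had -0.51, Mrpl2 0.04041, MT-ATP8 -0.014 and Rpl41 0.28. In replicates 4 and 5 alone, Gal had 0.41, Penk -0.43, Oxt 0.78, Bnip3 0.25, Hbb -0.04913 and Drd2 -0.43. The list medians of opposite sign there were 0.78 for neighbouring peptides, -0.11 for cytosolic ribosome, -0.20 for vascular and blood markers and 0.34 for ependymal markers. In replicates 1 and 3 alone, Th had 0.22, Timm17a -0.12, Mrpl2 0.38, MT-ATP8 -1.17, Rpl41 0.55, Smarca5 -0.16, Arrdc3 0.002085, Apod 0.24 and Riiad1 -0.008604. List medians of opposite sign there were 0.18 for LH peptides, 0.29 for synaptic vesicle and release, -0.07976 for ubiquitin and proteasome and 0.14 for oligodendrocyte markers. With 1 pair left out, the log2FC lay between -0.39 and 0.05565 for Gal, -0.14 and 0.38 for Penk, -0.35 and 0.26 for Oxt, and -0.37 and 0.12 for Mrpl2. It lay between -0.3404 and 0.82 for MT-ATP8, -0.43 and 0.22 for Rpl41, -0.17 and 0.08219 for Bnip3, and -0.44 and 0.0004836 for Apod. For Hbb it lay between -0.04369 and 0.10 and for Drd2 between -0.17 and 0.38. Medians lay between -0.04957 and 0.17 for LH peptides, -0.35 and 0.26 for neighbouring peptides, -0.07792 and 0.16 for vascular and blood markers, and -0.17 and 0.16 for ependymal markers. The median of synaptic vesicle and release genes lay between -0.398 and -0.05038, and that of cytosolic ribosome genes between 0.01645 and 0.3669. For ubiquitin and proteasome genes it lay between 0.1007 and 0.271, and for oligodendrocyte markers between -0.08107 and -0.0005441.

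Depth limits genes with fewer than 50 reads in several libraries, among them Slc6a3, Npvf, Lrrtm4, Adora2a and Zfp483. Phlpp2, Calcrl, Mpeg1, Cds2, Riiad1 and Arrdc3 also belong to these, and RPL39 had fewer than 50 reads in every library.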
